A study of Mus musculus with 3 samples.

Results

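miR-185, miR-423 and miR-744 are miRNAs that each come from a hairpin standing alone in an intron of a protein-coding gene. Every arm of these 3 hairpins that the deposited tables list was taken by name, which gave 5 arms (miR-185-5p, miR-185-3p, miR-423-5p, miR-423-3p and miR-744-5p) of 693 listed miRNAs. The study named the 5p arms for being lower after inhibition and higher after induction of p-Smad2/3 in these libraries, so those differences are described here and not tested. miR-744-3p was not analysed here.

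The libraries were made from short RNA of mouse TAG1 ES cells, an embryonic stem cell line in which doxycycline (Dox) switches on Alk4*, a constitutively active receptor that phosphorylates Smad2/3. The 0 hr library came from untreated cells. The 16 hrs SB library came from cells given 30 µM of the inhibitor for 16 hrs, a compound that the labels call SB-431541 and the methods SB-431542 (SB). For the 16+12 hrs library, Dox at 1 µg/µl for 12 hrs followed the same SB treatment. In the text, after SB and after Dox refer to these libraries. The untreated cells were in medium with foetal bovine serum and both treated cultures in medium with Knockout Serum Replacement, so medium and treatment cannot be told apart in a comparison with 0 hr. All cells were of a single line that carries the Alk4* transgene, and none of the 3 libraries came from cells without it. There was 1 library per condition. No difference between conditions therefore has a replicate check, and the 95% intervals below cover counting error only.

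A miRNA is cut from a hairpin in which a 5p arm and a 3p arm pair with each other. Usually one arm is kept in an Argonaute protein and guides it to transcripts through its seed, bases 2 to 8, and the other arm is degraded. Activated Smad2/3 act in the nucleus as transcription factors, and Smads have also been described to take part in the processing of some pri-miRNAs. miR-185 lies in the mouse counterpart of the human region that is deleted in DiGeorge syndrome, and transcripts of the small GTPases RhoA and Cdc42 are among its described targets. miR-423 gives an abundant 5p arm in many tissues, which is often measured in plasma. miR-744 has been described to act on the transcript of transforming growth factor β1.

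The mature sequences are shown because the arms differ in their seeds, which are in capitals, and because the 5p and 3p arms of miR-423 behaved unequally. They are RefSeq sequences on GRCm38.p6, which held 4 of the 5 arms, and are written 5′ to 3′ on the − strand:
miR-423-5p: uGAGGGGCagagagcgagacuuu
miR-423-3p: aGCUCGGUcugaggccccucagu
miR-744-5p: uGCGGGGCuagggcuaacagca
miR-185-3p: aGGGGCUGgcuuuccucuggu

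The 4 seeds differed from each other, and no other listed miRNA with a sequence shared one of them. Among the reference sequences, miR-6921-5p had the seed of miR-423-5p, and miR-7048-5p had that of miR-185-3p. Each of the 4 mature sequences was found in 1 hairpin, so a read of the full sequence could be given to 1 miRNA. The 5 letters GGGGC stood within bases 2 to 8 of miR-423-5p, miR-744-5p and miR-185-3p, at the same positions 4 to 8 of the first pair. They were searched after the sequences were seen, on the given strand of each miRNA, and 20 of the 1738 mature sequences in the table (1.15%) held them there. Both 5p arms shown began with U and both 3p arms with A. The GC content of the mature sequence was 56.5% for miR-423-5p, 63.6% for miR-744-5p, 61.9% for miR-185-3p and 65.2% for miR-423-3p. miR-423-5p held 10 G among its 23 bases and miR-744-5p held 9 among its 22.

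The hairpins of miR-423 and miR-744 are printed with both mature arms in capitals, to show where the listed arms lie. The second stretch in capitals of Mir744 is the 3p arm, whose level was not analysed here:
Mir423: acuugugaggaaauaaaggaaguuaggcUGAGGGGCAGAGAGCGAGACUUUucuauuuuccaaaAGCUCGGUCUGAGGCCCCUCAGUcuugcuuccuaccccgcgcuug
Mir744: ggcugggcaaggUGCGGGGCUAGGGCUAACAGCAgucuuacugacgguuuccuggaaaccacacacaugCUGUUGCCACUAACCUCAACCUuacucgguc

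On GRCm38 the miR-423 hairpin lies at chr11:77078064-77078172 and its arms are separated by 13 bases. It is in an intron of Nsrp1, which encodes a splicing regulator, 263 bases from the annotated start of that gene. The miR-744 hairpin, at chr11:65734733-65734832 and with 35 bases between its arms, is in an intron of Map2k4, a kinase of the JNK pathway, 53465 bases from the start of the gene. The miR-185 hairpin, of 65 bases, is at chr16:18327401-18327465, in an intron of Tango2, 20638 bases from the start. All 3 hairpins are on the strand of their host gene. The nearest other annotated hairpin on the same strand is 33971 bases from miR-185, 666926 bases from miR-744 and 994998 bases from miR-423.

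The tables give the level of a miRNA in rpm, its reads per 1000000 reads of the library. Each value was a whole multiple of 1 step per library, so the reads behind it could be recovered. The implied totals of the 0 hr, 16 hrs SB and 16+12 hrs libraries were 10955686, 11354692 and 9895513 reads, of which 28.3%, 24.1% and 33.4% were on listed miRNAs. miRNAs known from ES cells (21 listed arms of miR-290, miR-291a, miR-292, miR-293, miR-294, miR-295, miR-302a to miR-302d and miR-367) summed to 81866, 65193 and 93805 rpm in this order. They went both ways, with 5 called higher and 7 lower after SB, and 9 higher and 8 lower after Dox relative to SB. The most abundant of them was miR-290-5p, with 35638, 18094 and 37406 rpm. A list of 10 arms of miRNAs known from mesenchymal cells and fibroblasts (miR-143, miR-145, miR-199 and miR-214) summed to 1197, 4104 and 771 rpm, led by miR-199a-3p with 547, 1943 and 337 rpm. miR-199b-3p has the same values as miR-199a-3p in every library, and the sums were 650, 2161 and 434 rpm with these counted once, an alternative chosen after seeing the data. Of the 10 arms, 8 were called higher and 0 lower after SB, and 1 higher and 9 lower after Dox. No listed arm of either list was at 0 in any library. The part of other cells, of the medium and of the share of miRNA reads in the values below was not tested.

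The 5 arms were lowest at 16 hrs SB and highest at 16+12 hrs, in rpm. Together they had 9828 rpm in the untreated cells, 5441 rpm after SB and 16553 rpm after Dox. As a share of the reads on listed miRNAs, which removes the difference in total miRNA reads, they made up 3.47%, 2.26% and 4.96%. miR-423-5p was the largest contributor in each library, with 57.8%, 48.7% and 68.9% of the summed rpm.

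**Figure D1:**
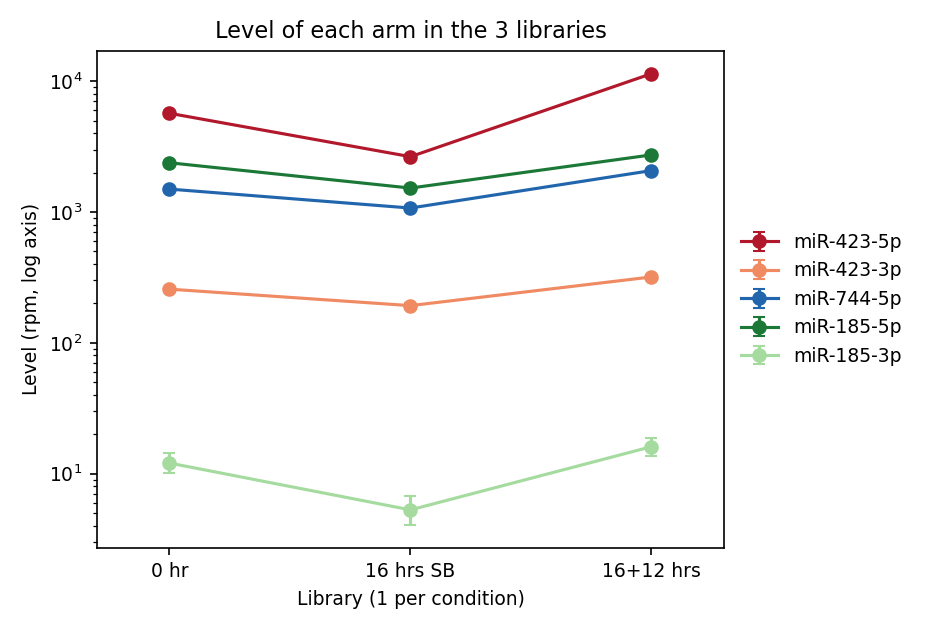
Level of the 5 arms in each library, in rpm on a log axis; points are the single library of a condition, lines join the points of an arm and bars are exact Poisson 95% intervals. All 5 arms are lowest at 16 hrs SB, and only the interval of miR-185-3p, with 60 reads there, is wide enough to see.

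miR-423-5p was the most abundant arm, with 5683 rpm (5638 to 5728) in the untreated cells, 2647 rpm (2618 to 2678) after SB and 11412 rpm (11346 to 11479) after Dox. Between 30061 and 112927 reads stood behind these values. It was the 11th most abundant miRNA in the untreated cells, the 21st after SB and the 8th after Dox. Its share of the reads on listed miRNAs was 2.01% (1.99 to 2.02, Clopper-Pearson), 1.10% (1.09 to 1.11) and 3.42% (3.40 to 3.44). The level was thus lowest after SB on either scale, and the level after Dox exceeded that of the untreated cells on both.

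miR-185-5p had 2379 rpm (2350 to 2408) before treatment, 1524 rpm (1501 to 1547) after SB and 2732 rpm (2700 to 2765) after Dox. It ranked 26th, 34th and 30th. Its share of the reads on listed miRNAs was 0.840% (0.830 to 0.850), 0.632% (0.622 to 0.641) and 0.819% (0.809 to 0.828) in the same order. The level after Dox was therefore above that at 0 hr in rpm and below it as a share of miRNA reads.

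miR-744-5p had 1497 rpm (1474 to 1520) before treatment, 1072 rpm (1053 to 1091) after SB and 2074 rpm (2045 to 2102) after Dox. It ranked 36th, 47th and 35th. Its share of the reads on listed miRNAs was 0.529% (0.520 to 0.537), 0.444% (0.437 to 0.452) and 0.621% (0.613 to 0.630). In every library the order of the 5p arms was miR-423-5p, miR-185-5p and miR-744-5p, and the intervals of neighbours did not overlap.

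The 3p arms were far lower. miR-423-3p had 257 rpm (248 to 267) before treatment, 192 rpm (184 to 201) after SB and 319 rpm (308 to 330) after Dox, and its ranks were 103, 108 and 100. miR-185-3p had 12.0 rpm (10.1 to 14.3), 5.28 rpm (4.03 to 6.80) and 16.1 rpm (13.7 to 18.8), from 132, 60 and 159 reads. The intervals of miR-185-3p at 0 hr and at 16+12 hrs overlapped, while neither overlapped the interval at 16 hrs SB.

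The first comparison asked which miRNAs were lower when Smad2/3 activation was blocked. For 16 hrs SB over 0 hr, miR-423-5p had a log2 ratio of −1.10 (−1.12 to −1.08), a 2.15-fold lower level, and miR-185-3p had −1.19 (−1.65 to −0.74). miR-185-5p had −0.64 (−0.67 to −0.61) and miR-744-5p −0.48 (−0.52 to −0.45). The smallest difference was that of miR-423-3p, at −0.42 (−0.50 to −0.34), or 1.34-fold. The study called a difference by its fold, here written as a log2 ratio of at least 0.32 in size, together with a Z-score beyond the 95% bounds of the normal distribution, computed on reads. By these criteria all 5 arms were called lower, as were 30.2% of the listed miRNAs (209 of 693). None of the 5 was called higher, beside 15.3% of the listed miRNAs. The 5p arms were chosen on this comparison and the 3p arms come from the same hairpins, so nothing is read from their count. The median log2 ratio was −0.64 over the 5 arms and −0.19 over all listed miRNAs. This gap follows in part from that choice and is not read as a result.

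The other comparison asked which miRNAs were higher after Alk4* was induced to activate Smad2/3 again. The 16+12 hrs library also differed from 16 hrs SB by Dox itself and by 12 hrs more of culture. In these libraries the 3 cannot be told apart. For 16+12 hrs over 16 hrs SB, miR-423-5p had a log2 ratio of 2.11 (2.09 to 2.13), a 4.31-fold higher level. This is a ratio of reads between single libraries. The study also measured this miRNA by qPCR in the sequenced RNA, where it missed the study's fold threshold in both comparisons. In the parental cells without the inducible receptor, the study reported that its qPCR level responded to Dox. The ratio of reads was therefore not borne out by a second method, and the qPCR was not reanalysed here. By reads, the ratio of miR-423-5p was the 30th highest of all 693, and the 3rd highest of the 126 miRNAs that had 1000 reads or more in each library. miR-744-5p had 0.95 (0.92 to 0.98) and miR-185-5p 0.84 (0.82 to 0.87), which placed them 29th and 42nd of the 126. miR-185-3p had 1.60 (1.17 to 2.06) and miR-423-3p 0.73 (0.65 to 0.81). All 5 arms were called higher, beside 41.7% of the listed miRNAs (289 of 693), and all 5 were called in both comparisons, beside 20.9% (145 of 693). None was called lower, beside 17.9%. The 5p arms were chosen on this comparison too, and it shares the 16 hrs SB library with the first. The median log2 ratio was 0.95 over the 5 arms and 0.38 over all listed miRNAs. Here too the gap follows in part from the choice of the 5p arms and is not read as a result.

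**Figure D2:**
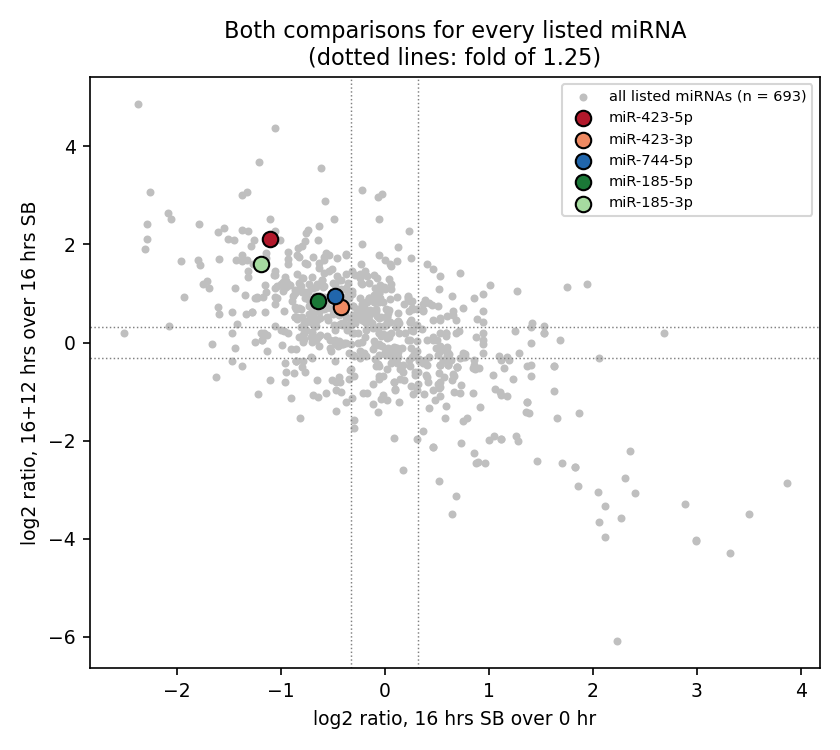
Log2 ratios for 16 hrs SB over 0 hr (horizontal axis) and 16+12 hrs over 16 hrs SB (vertical axis) for each of the 693 listed miRNAs (grey) and the 5 arms (coloured); dotted lines mark a log2 ratio of 0.32 in size. The axes share the 16 hrs SB library, so the slope of the cloud is not read as a result; miR-423-5p (−1.10 and 2.11) and miR-185-3p (−1.19 and 1.60) lie apart from the other 3 arms.

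The overall median moved with the scaling of the libraries, so the ratios are also given relative to it. For 16 hrs SB over 0 hr the arms were below the median of all listed miRNAs by a log2 difference of −0.91 (miR-423-5p), −1.0 (miR-185-3p), −0.45 (miR-185-5p), −0.29 (miR-744-5p) and −0.23 (miR-423-3p). For 16+12 hrs over 16 hrs SB they were above it by 1.73 for miR-423-5p, 1.23 for miR-185-3p, 0.57 for miR-744-5p, 0.46 for miR-185-5p and 0.35 for miR-423-3p. With the reads on listed miRNAs as the total of a library, the medians became 0.038 and −0.090. Of the calls over all miRNAs, 66.3% were lower in the first comparison and 70.0% were higher in the other. Under that scaling these shares became 46.6% and 42.8%, and over the 5 scalings other than rpm they ranged from 46.6% to 82.0% and from 42.8% to 65.9%.

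Among 6 scalings, miR-423-5p met the criteria of both comparisons under every one. Its log2 ratios lay between −1.34 and −0.87 and between 1.58 and 2.11. miR-185-3p did so as well, with log2 ratios of −1.43 to −0.96 and 1.14 to 1.60. For miR-185-5p the ratio of 16+12 hrs over 16 hrs SB was 0.24 under quantile normalization, which is below the threshold. For miR-744-5p the ratio of 16 hrs SB over 0 hr was −0.25 with libraries scaled to the reads on listed miRNAs, −0.30 by the median of ratios and −0.27 by TMM. miR-423-3p was called lower at 16 hrs SB in rpm and under the scaling to miR-26a-5p, a miRNA that the study used as a reference and that had 647, 766 and 798 rpm. For 16+12 hrs over 16 hrs SB, miR-423-3p was not called with scaling to the reads on listed miRNAs, at 0.26. The direction of both ratios was the same for the 5 arms under all 6 scalings.

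**Figure D3:**
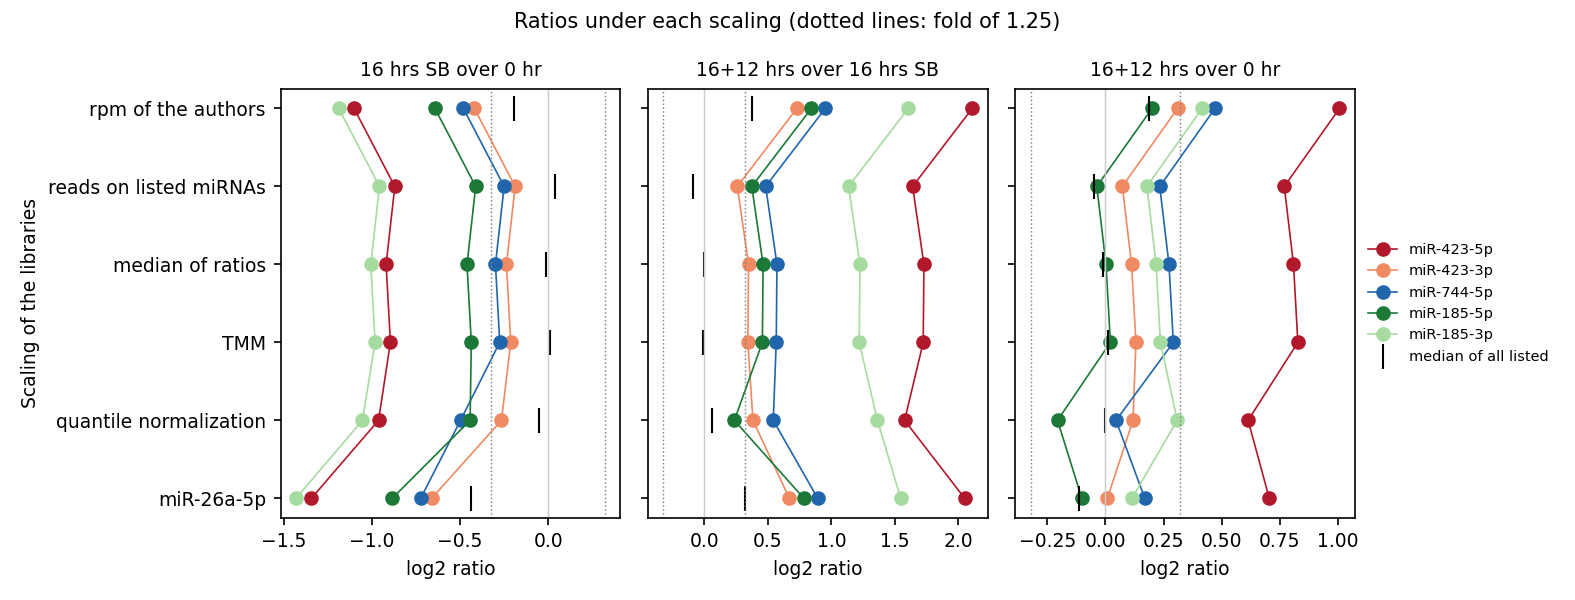
The log2 ratio of each arm (horizontal axis) in the 3 comparisons (panels) under the 6 scalings (vertical axis); black ticks are the median of all listed miRNAs and dotted lines the threshold of 0.32. The points of miR-423-5p lie beyond the dotted line in each panel, whereas those of miR-744-5p and miR-423-3p cross it in the first panel. In the second, miR-185-5p falls short of it under quantile normalization (0.24) and miR-423-3p with scaling to the reads on listed miRNAs (0.26).

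Activation by Alk4* after SB was also compared with the untreated cells. For 16+12 hrs over 0 hr the log2 ratio was 1.01 (0.99 to 1.02) for miR-423-5p, 0.47 (0.44 to 0.50) for miR-744-5p and 0.42 (0.07 to 0.76) for miR-185-3p. It was 0.31 (0.24 to 0.38) for miR-423-3p and 0.20 (0.18 to 0.22) for miR-185-5p, both below the threshold, the first just so. Thus 3 of the 5 arms were called higher, beside 30.6% of all listed miRNAs (212 of 693), and none lower, beside 19.8%. The ratio is fixed by the same 3 values as those that chose the 5p arms, and it is given as a description. With any of the other 5 scalings miR-423-5p was the single arm called, at log2 ratios of 0.61 to 0.83. That is 1 of 5 arms, beside 19.2% to 24.4% of the listed miRNAs under those scalings, a share near the background. miR-185-5p stood 0.011 above the median of all listed miRNAs in this comparison, and its direction turned with the scaling, from 0.20 in rpm to −0.21 under quantile normalization. Of the calls over all miRNAs here, 60.7% were higher in rpm and 38% to 49.6% under the other 5 scalings.

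Both arms of a hairpin are cut from the same transcript and read in the same library, so multiplying the values of a library by a factor leaves the ratio between them as it is. Quantile normalization, the 1 scaling used here that is not such a factor, does move it. At the miR-423 hairpin there were 22.1 reads of the 5p arm for each read of the 3p arm at 0 hr (21.3 to 23.0). This ratio was 13.8 (13.2 to 14.4) after SB and 35.8 (34.5 to 37.1) after Dox. The 5p arm made up 95.7% (95.5 to 95.8), 93.2% (92.9 to 93.5) and 97.3% (97.2 to 97.4) of the reads of both arms. The intervals of the 3 libraries did not overlap, and the 3p arm accounted for little of the difference in the summed rpm of the hairpin.

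The difference in log2 ratio, miR-423-5p minus miR-423-3p, was −0.68 (−0.77 to −0.60) for 16 hrs SB over 0 hr and 1.38 (1.30 to 1.46) for 16+12 hrs over 16 hrs SB. These comparisons share the 16 hrs SB library, and the 5p values are those for which miR-423-5p was named, so the differences and their ranks are descriptions. The difference was 0.70 (0.62 to 0.77) for 16+12 hrs over 0 hr. Among 62 hairpins with at least 100 reads of each arm in every library, the size of this difference had a median of 0.34, 0.61 and 0.55 in these 3 comparisons. miR-423 stood 15th, 12th and 27th of the 62 by size. Of the 14 hairpins with at least 1000 reads of each arm, it stood 6th, 5th and 5th. For 16+12 hrs over 16 hrs SB, 38 of the 62 hairpins had the higher log2 ratio at the 5p arm, as miR-423 had, and 24 at the 3p arm. Of the 14 deeper hairpins, 11 had it at the 5p arm. For 16 hrs SB over 0 hr the 62 were split into 30 with the higher ratio at the 5p arm and 32 at the 3p arm, and miR-423 was among the 32. Of the 14 deeper hairpins, 4 had it at the 5p arm in this comparison.

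At the miR-185 hairpin the difference had the opposite sign. Each read of the 3p arm was matched by 197 reads of the 5p arm before treatment (166 to 236), 288 after SB (224 to 378) and 170 after Dox (146 to 200). As log2 ratios, miR-185-5p minus miR-185-3p was 0.55 (0.11 to 0.99) for 16 hrs SB over 0 hr and −0.76 (−1.19 to −0.33) for 16+12 hrs over 16 hrs SB. For 16+12 hrs over 0 hr it was −0.22 (−0.55 to 0.12), an interval that includes 0. Under quantile normalization, examined for this after seeing the data, the differences of miR-185 were 0.61, −1.13 and −0.51, and those of miR-423 were −0.70, 1.19 and 0.49, with the signs as in rpm. With 60 reads of the 3p arm at 16 hrs SB, the hairpin was not among the 62.

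**Figure D4:**
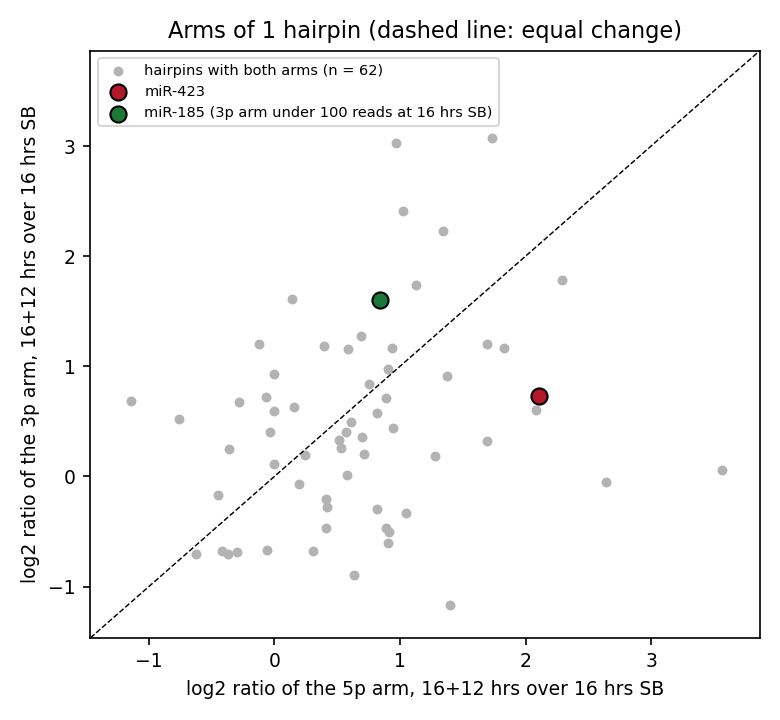
Log2 ratios for 16+12 hrs over 16 hrs SB of the 5p arm (horizontal axis) and the 3p arm (vertical axis) of 62 hairpins with at least 100 reads of each arm in every library (grey), with miR-423 (red) among them and miR-185 (green) added; the dashed line marks equal change. miR-423 lies below the line, at 2.11 and 0.73, and miR-185 above it, at 0.84 and 1.60.

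The solitary position was shared with many miRNAs. Hairpins were found in the annotation for 649 of the listed miRNAs, and 262 miRNAs other than the 5 arms came from a single hairpin with no other hairpin within 10000 bases on the same strand. Of these 262, 57 (21.8%) were called lower at 16 hrs SB, 110 (42.0%) were called higher at 16+12 hrs than at 16 hrs SB, and 40 (15.3%) were called in both comparisons. Their median log2 ratios were −0.11 and 0.49. With 50000 bases as the minimum distance, 3 of the 5 arms counted as solitary, those of miR-423 and miR-744, beside 240 other miRNAs. Of these 240, 37 (15.4%) were called in both comparisons, and the median log2 ratios were −0.19 and 0.51. The ratios of the 5p arms were used to choose them and are not compared with these medians.

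Base composition moved with the ratios over all miRNAs. Because mature sequences were matched by name for 74.5% of the listed miRNAs, less than the 80% set as a minimum, a check with mature sequences is void, and the GC content of the whole hairpin was used for 649 (93.7%). The median log2 ratio after Dox, relative to SB, was 0.14 in the tertile of miRNAs with the lowest hairpin GC, 0.52 in the middle tertile and 0.58 in the highest. For 16 hrs SB over 0 hr these medians were −0.052, −0.23 and −0.26. The hairpin of miR-423 had a GC content of 51.4% and lay in the middle tertile, and those of miR-744 (56.0%) and miR-185 (58.5%) lay in the highest. The 5p arms were chosen on the ratio after Dox, so their ranks within a tertile are descriptions. In its tertile, miR-423-5p had the 13th highest ratio after Dox of 217 miRNAs, while miR-744-5p stood 70th and miR-185-5p 82nd of 214. Across the 649 miRNAs, which share the libraries, Spearman's rho between GC content and the ratio after Dox was 0.23. The part of base composition in the ratios of the 5 arms was not tested.

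**Figure D5:**
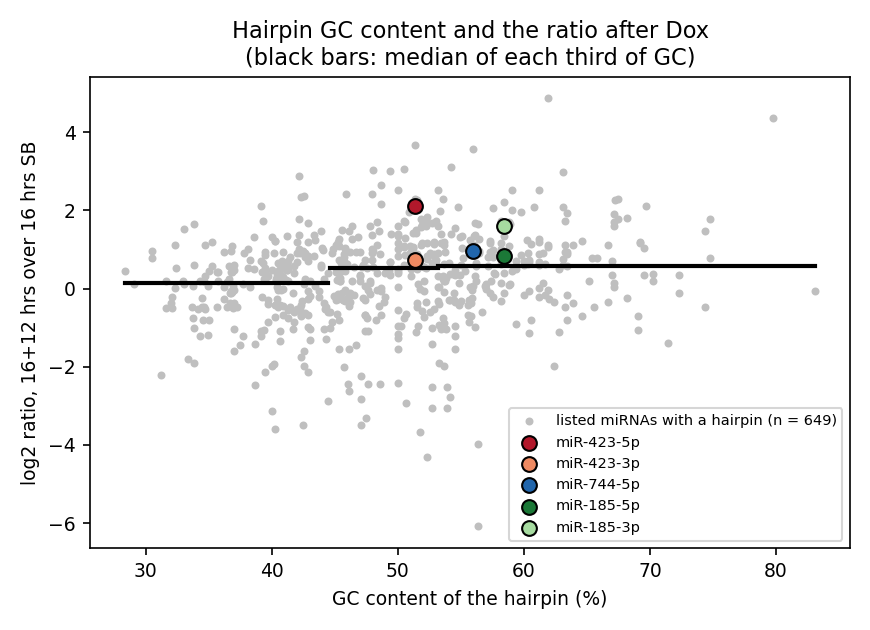
GC content of the hairpin (horizontal axis, in percent) and log2 ratio of 16+12 hrs over 16 hrs SB (vertical axis) of 649 listed miRNAs (grey) and the 5 arms (coloured); black bars are the medians of the tertiles of GC content, 0.14, 0.52 and 0.58. The 5p arms were chosen on this ratio, so their place above the medians is not a result.

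The miRNAs with the most similar pattern were found by the distance over both log2 ratios, among 291 miRNAs that had 100 reads or more in each library, from values of 3 libraries. Closest to miR-423-5p were miR-25-5p, at a distance of 0.10 and with 1416, 706 and 2996 rpm, miR-323-5p at 0.28 and miR-92a-1-5p at 0.31. Their log2 ratios after Dox were 1.83 or more, which follows from the choice by distance and is not a result. Closest to miR-185-5p were miR-541-5p (0.052; 2630, 1743 and 3089 rpm), miR-673-5p (0.059) and miR-342-5p (0.070). Closest to miR-744-5p were miR-183-5p (0.10; 333, 253 and 468 rpm), miR-669c-5p (0.13) and miR-434-5p (0.14). No arm of the 3 hairpins was among the 3 closest to any of these 5p arms, though miR-185-3p, with under 100 reads after SB, was not among the 291.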

How the data were processed

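Short RNA of TAG1 ES cells was sequenced by the authors on an Illumina GAII, with 1 library per condition and the sequencing runs of a library pooled. The authors removed adaptors (FASTX), matched reads without mismatches to mature and hairpin sequences of miRBase with Bowtie 0.12.7, gave reads with several matches to the miRNA of closest length or to each, and deposited values in rpm, the reads of a miRNA divided by 1 total per library. No genome build enters these values.

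Read numbers were recovered from the smallest step of each library. All 2079 values were whole (100%) within 0.05 reads. Ratios of rpm were taken without a pseudocount. A Z-score on the proportions of reads in 2 libraries compares those libraries and not conditions. With 1 library per condition no count model could be fitted, and no p-value is given. Intervals are exact (Poisson) for levels, exact (Clopper-Pearson) for shares and for ratios of reads, and for differences between arms a normal approximation to the log ratio. No molecular identifiers were used, so reads may be copies of one molecule. The steps were tested on simulated data. Hairpin positions and host genes came from GENCODE M21 (GRCm38). Python 3.11.15, NumPy 2.4.6 and SciPy 1.17.1 were used.

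The members and lists were chosen with earlier results of these data known. Named miRNAs were the listed arms, the 3 with the most similar pattern to each 5p arm, those sharing a seed, miR-26a-5p and the most abundant of each marker list. No ratio given here uses the qPCR values of the study, so the ratios rest on sequencing reads alone. In that qPCR miR-423-5p did not reach the paper's fold threshold, as stated above.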

Additional observations from a re-analysis of the deposited data

How the results depend on the processing

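No paired analysis was possible because each condition had 1 library. Of 90 ratios of single arms recomputed under another scaling or with a pseudocount, 68 kept direction and call, 19 kept the direction but not the call, and 3 reversed, all of them the ratio of 16+12 hrs over 0 hr of miR-185-5p: −0.037 with libraries scaled to the reads on listed miRNAs, −0.21 under quantile normalization and −0.10 with scaling to miR-26a-5p. In 57 further cases the criterion or the filter changed and the ratio did not, and 44 kept the call. The ratios of miR-423-5p kept direction and call under all 10 alternatives, all of which rest on the same sequencing reads. Of 5 arms called lower at 16 hrs SB, 3 were called when scaled to the reads on listed miRNAs, by TMM, by the median of ratios and at a fold of 1.5, beside 20.8%, 20.9%, 21.6% and 23.4% of the listed miRNAs, and 2 at a fold of 2, beside 9.67%. Of 5 called higher at 16+12 hrs than at 16 hrs SB, 4 were called when scaled to the reads on listed miRNAs (without miR-423-3p, beside 23.5%), 4 under quantile normalization (without miR-185-5p, beside 29.4%) and 2 at a fold of 2 (beside 22.2%). Of 5 with both changes, 3 were called under these 3 scalings, under quantile normalization and at a fold of 1.5, beside 11.4% to 14.7%, and 2 at a fold of 2, beside 5.92%. Of 3 arms called higher at 16+12 hrs than at 0 hr, 1 was called under each of the other 5 scalings and at a fold of 1.5 or 2, beside 13.6% to 24.4%. The cause of these moves was not tested beyond the scaling or the threshold itself.

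Over all listed miRNAs, the 209 called lower at 16 hrs SB became 67 at a fold of 2 and 124 of the 291 with at least 100 reads in every library (42.6%, against 30.2%). The 289 called higher after Dox became 163 with libraries scaled to the reads on listed miRNAs, 185 by the median of ratios, 184 by TMM, 154 at a fold of 2 and 167 of the 291 (57.4%, against 41.7%). The 145 with both changes became 79, 86 and 83 under these scalings, 41 at a fold of 2 and 96 with the whole interval of the ratio beyond the threshold of a log2 ratio of 0.32. The 212 called higher at 16+12 hrs than at 0 hr became 133 with scaling to miR-26a-5p, 94 at a fold of 2 and 119 of the 291 (40.9%, against 30.6%). Depth limited miR-185-3p, with 60 reads at 16 hrs SB, which was left out by the minimum of 100 reads.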
